A study of Mus musculus with 8 samples.

Results

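The genes described here make peptides and load them onto MHC class I molecules. They are Tap1, Tap2, Tapbp, B2m, Nlrc5, the immunoproteasome subunits Psmb8, Psmb9 and Psmb10, and the proteasome activator subunits Psme1 and Psme2. They were chosen by name, and every probe set that the platform annotation gives to one of them alone was taken, which gave 15 probe sets for 9 of the 10 genes, out of 18194 genes with such a probe set. Psme2 had none, because its 1 probe set is also assigned to Psme2b, and it has no value here. All 9 genes passed the filter on dim probe sets, which left 13119 genes in the test.

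RNA was measured on 8 Affymetrix arrays from C57BL/6 mice on the AIN-76 diet, with 2 arrays in each of 4 groups. All mice were Apc (Min/+), the genotype that forms intestinal tumours, and Spint1 (flox/flox), with loxP sites around the gene of the protease inhibitor HAI-1. Control mice had no Cre. HAI-1 deficient mice also carried Vil-Cre, which is driven by the villin promoter and acts in intestinal epithelial cells, so that immune and stromal cells of the tissue keep the gene. Each genotype gave small intestinal mucosa outside tumours and tumours of the small intestine. The labels give neither age nor sex, nor whether separate mice gave the 2 arrays of each group, so p-values measure only the spread between these samples.

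Cells cut their own proteins into peptides with the proteasome, and the transporter formed by TAP1 and TAP2 carries these peptides into the endoplasmic reticulum. There tapasin, the product of Tapbp, holds the transporter next to empty class I molecules, each made of a heavy chain and beta-2 microglobulin, the product of B2m. Under interferon-gamma the catalytic subunits Psmb5, Psmb6 and Psmb7 are replaced in new proteasomes by Psmb8, Psmb9 and Psmb10, and the activator made of PSME1 and PSME2 caps the particle. NLRC5 is a transactivator of class I genes. Lymphocytes express these genes at high levels, and interferon raises them in epithelial cells as well.

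In the mouse reference Psmb9, Tap1, Psmb8 and Tap2 lie next to each other in the class II region of the MHC on chromosome 17, and Tapbp lies on the same chromosome. RefSeq promoter windows of assembly GRCm38.p6, from 250 bases before to 50 after a gene's start, were at hand for 8 of the 10 genes; Tap2 and Nlrc5 had no entry. The windows of Tap1 and Psmb9, which are transcribed away from each other, share 275 bases, so 1 sequence shows the promoter of both. The windows of Tap1, Psmb8 and B2m are shown, since they stand for the shared promoter and for the genes with the largest and the smallest fitted difference for HAI-1 loss in mucosa. Capitals mark matches, on either strand, to the interferon response pair GAAANNGAAA, the STAT site TTCNNNGAA, the NF-kappaB consensus and the CCAAT box.
Tap1, chr17:34187306-34187605, plus strand: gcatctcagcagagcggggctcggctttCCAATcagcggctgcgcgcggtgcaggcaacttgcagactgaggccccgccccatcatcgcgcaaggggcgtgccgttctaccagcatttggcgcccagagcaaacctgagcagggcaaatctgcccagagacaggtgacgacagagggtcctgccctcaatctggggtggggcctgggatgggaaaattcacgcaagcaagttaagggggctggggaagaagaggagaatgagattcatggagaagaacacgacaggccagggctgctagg
Psmb8, chr17:34197945-34198244, plus strand: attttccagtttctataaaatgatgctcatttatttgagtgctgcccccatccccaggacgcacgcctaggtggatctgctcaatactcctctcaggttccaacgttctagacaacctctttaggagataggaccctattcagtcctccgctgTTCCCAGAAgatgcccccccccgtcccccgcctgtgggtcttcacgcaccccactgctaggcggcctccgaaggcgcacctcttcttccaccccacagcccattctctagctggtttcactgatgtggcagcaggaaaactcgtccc
B2m, chr2:122147437-122147736, plus strand: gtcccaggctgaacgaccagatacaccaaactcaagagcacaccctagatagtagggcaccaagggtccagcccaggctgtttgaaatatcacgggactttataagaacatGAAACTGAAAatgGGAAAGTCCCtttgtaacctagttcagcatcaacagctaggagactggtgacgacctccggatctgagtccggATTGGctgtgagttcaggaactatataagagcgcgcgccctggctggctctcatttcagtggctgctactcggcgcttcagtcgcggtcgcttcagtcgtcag
The B2m window held GAAACTGAAA, followed by a match to the NF-kappaB consensus, GGAAAGTCCC, with no overlap between them. The Psmb8 window held the STAT site TTCCCAGAA. The pair GAAANNGAAA was found in the windows of B2m and Psme1, against 3.44% of all 32851 windows, the STAT site in that of Psmb8 (8.30% of all windows), the NF-kappaB consensus in that of B2m (4.51%) and the CCAAT box in those of B2m, Tapbp, Psmb9 and Tap1 (37.4%). These matches describe the letters in the windows and show no binding. The CCAAT box of Psmb9 and that of Tap1 are the same site, which lies in their shared bases and is read on opposite strands.

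Across the series, Spint1 differed between deficient and control arrays by -0.58 ± 0.24 log2 in mucosa and -1.10 ± 0.24 in tumours (SE, n = 2 per group) and was not called (limma, adjusted p = 0.271 and 0.779). For Gapdh, the 3' probe set read 25.9 times the 5' one on the second control tumour array, and 0.803 to 1.77 times elsewhere. Poly-A spike-in signal averaged 6.08 to 6.93 log2 on 5 arrays and 7.67 to 8.19 on the second array of each group but control tumours. The labels do not name this split, which is used below as a possible batch, called the spike-in batch. Its cause was not tested. The 18S ribosomal RNA signal of the high arrays was 14.60 and 13.63 log2 in mucosa and 7.61 in the deficient tumour. It was 8.02 to 10.07 on the other arrays. Epithelial markers, 8 of 8 tested, averaged 14.10 to 14.26 log2 on every array, but single markers moved in both directions. From control mucosa to control tumours 6 of the 8 were lower, such as Cdx2 (mean 12.42 to 11.64). Krt18 rose from 12.85 to 14.66. Here and below, signals are the deposited log2 values, and differences are differences of log2 signals from 1 limma fit to all 8 arrays, with p-values adjusted over the 13119 genes and a gene called at an adjusted p under 0.05.

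Outside tumours, the question was how mucosa without HAI-1 differs from control mucosa. All 9 genes had both deficient arrays below both control arrays. The difference was largest for the immunoproteasome subunits Psmb8 and Psmb9 and for Tap2, and smallest for B2m. Of the 9 genes, 1 was called, Tap2, which fell (0.152% of all tested genes were called lower), 8 had an unadjusted p under 0.05 on the lower side (4.53% of all genes), and 9 had arrays that did not overlap on the lower side (17.3%). The median difference of the 9 genes was -1.15 log2, against 0.11 over all genes.

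Psmb8, the chymotrypsin-like subunit of the immunoproteasome also named LMP7, had a signal of 12.96 on both control mucosa arrays and 10.41 and 10.27 on the deficient ones. Its difference was -2.62 ± 0.46 log2 (SE, n = 2 per group), which is 6.15-fold lower, and its adjusted p of 0.0507 by limma just missed the threshold. Psmb9, or LMP2, had signals of 12.53 and 12.35 in control mucosa and of 10.10 and 10.12 in deficient mucosa. It differed by -2.32 ± 0.60 log2, or 5.01-fold (limma, adjusted p = 0.109). Psmb10, also named MECL-1, had signals of 13.41 on both control arrays and 12.19 and 12.18 on the deficient ones. The gap of -1.22 ± 0.35 log2 was 2.34-fold (limma, adjusted p = 0.127). In each of these 3 genes the replicate arrays lay close together and the groups far apart. Psme1, the alpha subunit of the activator, had signals of 13.31 and 13.26 against 12.81 and 12.48, a difference of -0.64 ± 0.26 log2 (limma, adjusted p = 0.262).

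Tap2, which forms the peptide channel together with Tap1, fell from 10.47 and 10.60 in control mucosa to 8.96 and 8.99 in deficient mucosa. The fall of 1.57 ± 0.26 log2 was 2.96-fold (limma, adjusted p = 0.0454). Tap1 had signals of 11.40 and 10.85 against 9.83 and 10.10, so its arrays also did not overlap, but the control arrays differed more from each other (-1.15 ± 0.40 log2, limma, adjusted p = 0.200). Tapbp had signals of 13.18 on both control arrays against 12.38 and 12.46, a difference of -0.76 ± 0.24 log2 (limma, adjusted p = 0.159). For B2m, the light chain of every class I molecule, signals were 14.60 and 14.68 against 14.38 and 14.44. Its difference was -0.23 ± 0.31 log2 (limma, adjusted p = 0.784). Nlrc5, the dimmest of the 9, had signals of 8.33 and 8.01 against 7.42 and 7.18, a difference of -0.87 ± 0.37 log2 (limma, adjusted p = 0.280).

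The call of Tap2 depended on which arrays were in the fit. It ended without either control mucosa array, either deficient mucosa array or either control tumour array. Psmb8 and Psmb9 were called when only the 2 mucosa groups were fitted (46 of 13119 genes in either direction). There Tap2 was not called (limma, adjusted p = 0.0699). Over all settings its adjusted p ran from 0.0215 to 0.182. Leaving out either deficient tumour array kept the mucosa differences of Psmb8, Psmb9 and Tap2 at -2.62, -2.32 and -1.57 log2. With a term for the spike-in batch 0 of the 9 genes were called, against 130 of 13119 genes in either direction. Tap2 then had an adjusted p of 0.0540 (limma). Set against the control array of the same spike-in batch, each deficient mucosa array was lower for all 9 genes, with differences of -2.55 to -0.22 log2 in the low batch and of -2.69 to -0.24 in the high one (no test).

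**Figure D1:**
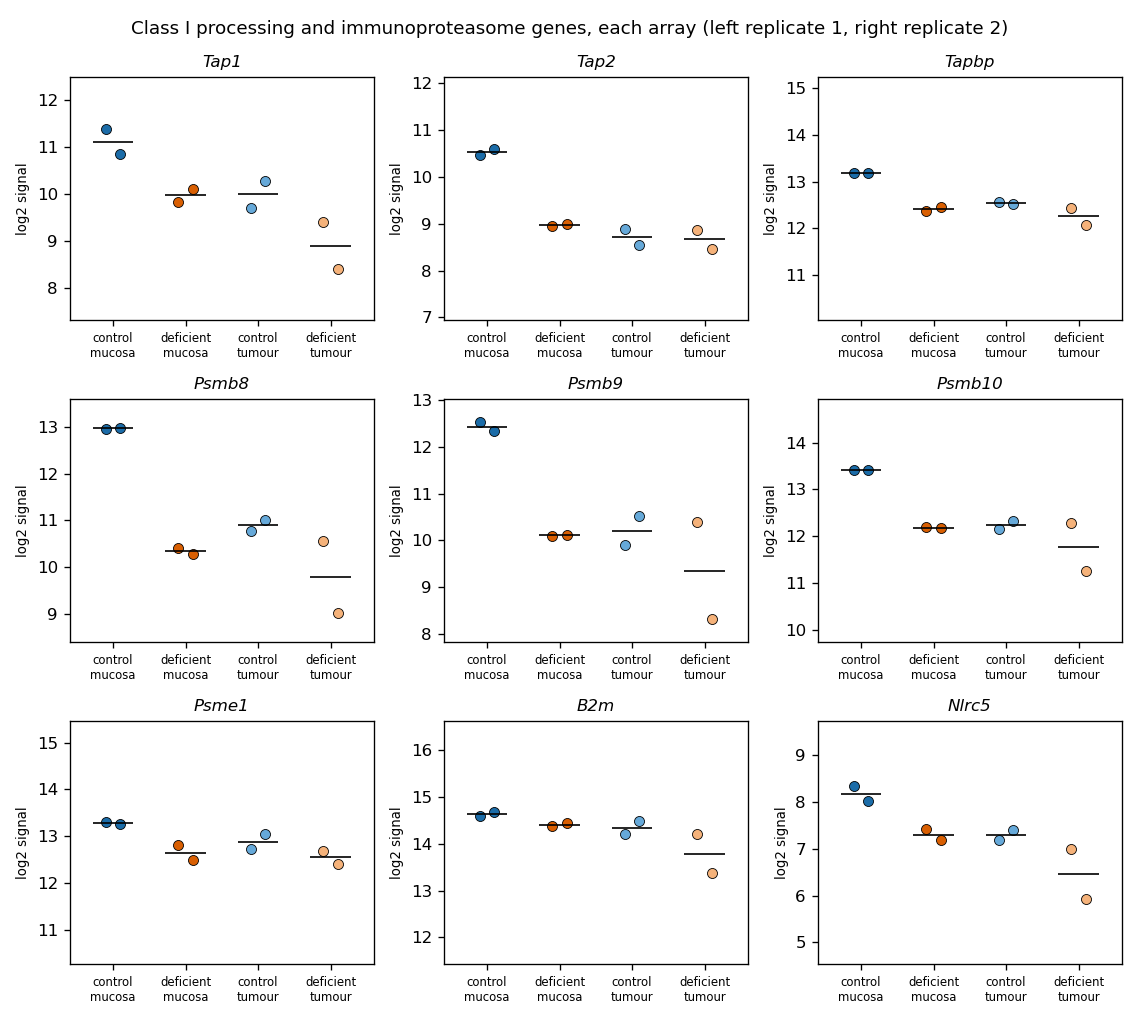
Log2 signal of the 9 measured genes on each array, with a panel per gene and the same span of the vertical axis in every panel; points are arrays, replicate 1 on the left, and lines are the means of 2 arrays. Control mucosa was the highest group for all 9 genes, and the second deficient tumour array was the lowest for all 9.

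In tumours, the comparison of deficient with control mice gave 0 called genes among the 9 and 0% of all tested genes (limma), and 2 of the 9, Psmb8 and Tap1, had an unadjusted p under 0.05 on the lower side (2.77% of all genes). All 9 fitted differences were below 0, with a median of -0.56 log2 against -0.01 over all genes. The arrays did not overlap, on the lower side, for 6 of the 9 genes (19.4% of all genes), namely Tap1, Tapbp, Psmb8, Psme1, B2m and Nlrc5. The 2 deficient tumour arrays were far apart, and the second was below the first for every one of the genes. Over all probe sets that second array had 762 values at 0, against 313 to 624 on the other arrays. It also had the highest median signal, 6.35 log2. The part of array quality in its low member values was not tested.

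Psmb8 had tumour signals of 10.77 and 11.01 in control mice and of 10.56 and 9.01 in deficient mice. Its difference was -1.11 ± 0.46 log2 (limma, adjusted p = 0.779), and -0.33 without the second deficient array. Psmb9 had signals of 9.90 and 10.51 in control tumours and 10.39 and 8.31 in deficient tumours, where the first array lay between the controls and the second below both. Its difference was -0.85 ± 0.60, and 0.19 without that second array. For Psmb10 signals were 12.15 and 12.33 against 12.27 and 11.25, a difference of -0.48 ± 0.35, and 0.04 without the second array. Tap1 was below both control tumours on each deficient array, with 9.39 and 8.40 against 9.70 and 10.28. It differed by -1.10 ± 0.40 (limma, adjusted p = 0.779), or by -0.60 without the second array. Tap2, the gene called in mucosa, had nearly the same level in all tumours, with signals of 8.90 and 8.54 in control mice and of 8.86 and 8.47 in deficient mice. Its difference was -0.05 ± 0.26, and 0.15 without the second deficient array.

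The remaining 4 genes kept a negative difference when the second deficient tumour array was left out, though smaller. Nlrc5 had signals of 7.19 and 7.41 in control tumours and of 6.99 and 5.92 in deficient ones, and its difference of -0.84 ± 0.37 became -0.31. B2m had signals of 14.21 and 14.48 against 14.20 and 13.37, and its difference of -0.56 ± 0.31 became -0.14. Tapbp, with 12.57 and 12.52 against 12.43 and 12.08, went from -0.29 ± 0.24 to -0.11. Psme1, with 12.72 and 13.05 against 12.69 and 12.40, went from -0.34 ± 0.26 to -0.19. That second array is also the only deficient tumour of the high spike-in batch, so these values are those within the low batch, where 6 of the 9 genes were lower and 3 higher. The batch holds no control tumour on its high side.

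Averaged over both tissues, limma called 0 of the 9 genes and 0% of all genes, while 8 of the 9 had an unadjusted p under 0.05 on the lower side (5.11% of all genes). The median difference was -0.85 log2 against 0.07 over all genes. Psmb8 and Tapbp had all 4 deficient arrays below all 4 control arrays (1.37% of all genes on the lower side), with differences of -1.86 ± 0.32 and -0.53 ± 0.17 log2 (n = 4 arrays per genotype, limma, adjusted p = 0.106 and 0.211). On leaving out single arrays the averages ran from -2.25 to -1.48 log2 for Psmb8, from -2.11 to -1.07 for Psmb9 and from -1.11 to -0.59 for Psmb10. The most negative of each came without the first deficient tumour array. That fit keeps only the second deficient tumour array, the lowest for all 9 genes.

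Whether HAI-1 loss acts differently in the 2 tissues was tested as the tumour difference minus the mucosa difference. It was called for 0 of the 9 genes and 0% of all genes by limma, with 2 of the 9 at an unadjusted p under 0.05 in either direction (9.23% of all genes). Tap2 had the smallest p of the 9, at 1.51 ± 0.37 log2 (limma, unadjusted p = 0.00375, adjusted p = 0.296), followed by Psmb8 at 1.52 ± 0.65 (adjusted p = 0.539). For Tap1 and Nlrc5 the values were 0.06 ± 0.57 and 0.03 ± 0.52, and B2m alone was negative, at -0.33 ± 0.45.

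In control mice, tumours were compared with mucosa. Tumours had lower signals of all 9 genes on both arrays (23.6% of all genes did not overlap on the lower side), and 4 genes fell, Tap2, Psmb8, Psmb9 and Psmb10 (7.64% of all genes were called lower). The median was -1.13 log2 against 0.24 over all genes. Tap2 fell by 1.82 ± 0.26 log2, or 3.53-fold (limma, adjusted p = 0.00361). Psmb9 fell by 2.23 ± 0.60, or 4.69-fold, Psmb8 by 2.07 ± 0.46, or 4.21-fold, and Psmb10 by 1.17 ± 0.35, or 2.25-fold (limma, adjusted p = 0.0299, 0.0149 and 0.0406). Tap1 (-1.13 ± 0.40), Tapbp (-0.63 ± 0.24), Nlrc5 (-0.87 ± 0.37), Psme1 (-0.40 ± 0.26) and B2m (-0.29 ± 0.31) did not pass (limma, adjusted p = 0.0719 to 0.524). Tap2 alone was called without any 1 of the 4 control arrays. With quantile normalization 2 genes were called, Tap2 and Psmb8 (3341 of all 13117 genes in either direction). The same 2 were called without the filter (2464 of 18194). Within the low spike-in batch, with 1 mucosa and 2 tumour arrays, all 9 genes were lower, with differences of -2.32 to -0.25 log2.

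In deficient mice the same comparison called 0 of the 9 genes (limma, against 1.75% of all genes called lower), with 1, Tap1, at an unadjusted p under 0.05 on the lower side (7.94%). The arrays did not overlap on the lower side for 4 of the 9 genes (18.9%), Tap1, Tap2, B2m and Nlrc5. Differences ran from -1.07 ± 0.40 for Tap1 to -0.10 ± 0.26 for Psme1. Psmb8 and Psmb9 were at -0.56 ± 0.46 and -0.76 ± 0.60, and at 0.21 and 0.28 without the second deficient tumour array. Within the low spike-in batch 5 genes were lower and 4 higher in the tumour, and within the high batch all 9 were lower, with 1 array per group. The comparisons of this and the preceding paragraphs share arrays, so their values are not independent of each other.

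**Figure D2:**
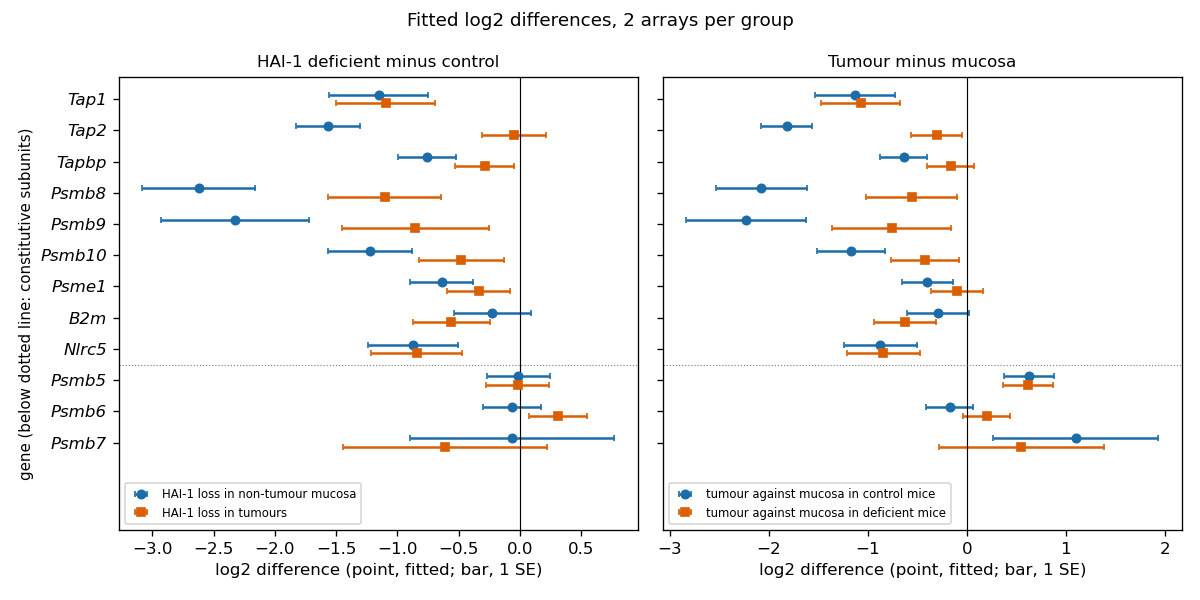
Fitted log2 differences (points) with 1 SE (bars) for HAI-1 loss in each tissue on the left and for tumours against mucosa in each genotype on the right; the constitutive subunits stand below the dotted line. Psmb8 and Psmb9 lay furthest below 0 in mucosa without HAI-1 and in control tumours, while Psmb5 and Psmb6 lay within 1 log2 of 0 in all 4 comparisons.

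The groups had the same first and last place for every gene. Control mucosa had the highest mean and did not overlap with the next group for any of the 9, and deficient tumours had the lowest mean. Between them, control tumours came before deficient mucosa for Tap1, Tapbp, Psmb8, Psmb9, Psmb10 and Psme1, and after it for Tap2, B2m and Nlrc5. The arrays of these 2 middle groups overlapped for all but Tap2, Tapbp and Psmb8. Deficient tumours, in last place by their mean, overlapped with the group before them for all but Tap1, B2m and Nlrc5.

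The constitutive catalytic subunits, which the immunoproteasome subunits replace, did not follow this order. In mucosa their differences for HAI-1 loss were -0.01 ± 0.25 for Psmb5, -0.07 ± 0.24 for Psmb6 and -0.06 ± 0.83 log2 for Psmb7. By limma 0 of the 3 were called in any comparison. At an unadjusted p under 0.05 there were, for HAI-1 loss, 0 in mucosa (17.5% of all genes in either direction) and 0 in tumours (6.11%). Psmb5 had signals of 11.78 and 12.06 in control mucosa, 12.04 and 11.78 in deficient mucosa, 12.57 and 12.53 in control tumours and 12.69 and 12.36 in deficient tumours, so it was higher in tumours than in mucosa on every array. Psmb6 stayed between 12.05 and 12.55 on all 8 arrays. Psmb7 had 9.55 to 10.17 on the 3 arrays of the high spike-in batch and 11.19 to 12.17 on the other 5; the part of the batch in this was not tested.

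Within an array any scaling cancels in the difference between 2 probe sets, and only the change of that difference between groups can be read. Psmb8 minus Psmb5 was 1.18 and 0.90 log2 in control mucosa, and -1.63 and -1.50 in deficient mucosa. In control tumours it was -1.80 and -1.51, and in deficient tumours -2.13 and -3.35. Psmb9 minus Psmb6 was 0.27 and -0.03 in control mucosa, -2.26 and -2.03 in deficient mucosa, -2.34 and -1.54 in control tumours and -1.97 and -4.24 in deficient tumours. For both pairs control mucosa stood apart, and the other 3 groups lay close to or below each other. Psmb10 minus Psmb7 was 2.22 and 3.24 in control mucosa and 0.50 and 2.63 in deficient mucosa, so these groups overlapped. Against the control array of the same spike-in batch, each deficient mucosa array was lower. In tumours this pair gave 0.52 and 0.39 in control mice and 0.10 and 1.08 in deficient mice. The tumour means differed by 0.14, a sign opposite to that of the other pairs. Over both tissues the 4 deficient and 4 control arrays differed by -1.85 for Psmb8 minus Psmb5, by -1.71 for Psmb9 minus Psmb6 and by -0.51 for Psmb10 minus Psmb7. None of the 3 passed an exact permutation test over 70 assignments (two-sided, p = 0.143, 0.114 and 0.629, or 0.214, 0.214 and 0.629 after Benjamini-Hochberg adjustment over the 3 pairs); the test ignores tissue, and an exact test within 1 tissue, with 2 arrays against 2, could not pass.

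**Figure D3:**
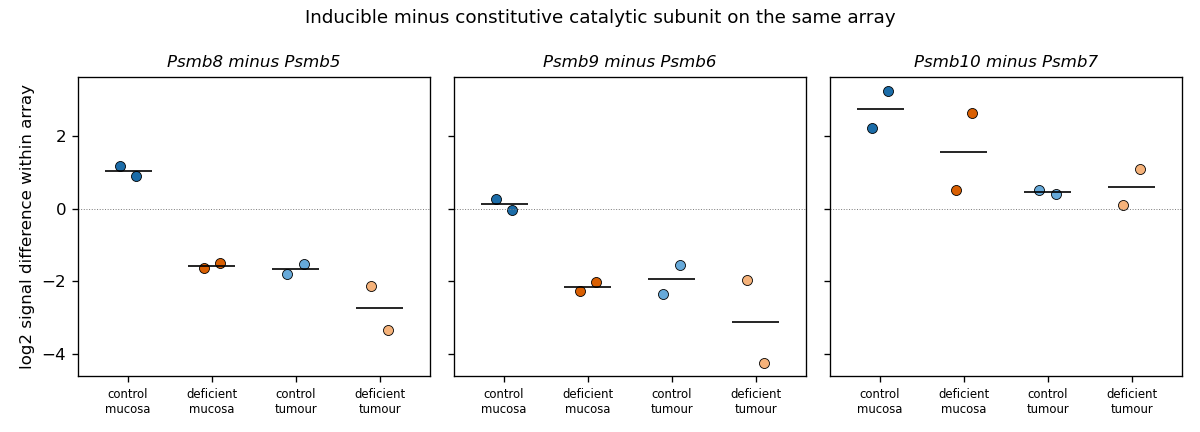
Log2 signal of the inducible subunit minus that of its constitutive partner on the same array; points are arrays, replicate 1 on the left, and lines are means of 2 arrays. For Psmb8 minus Psmb5 and Psmb9 minus Psmb6 the control mucosa arrays lie above all others, whereas for Psmb10 minus Psmb7 the replicate arrays of mucosa differ by 1.02 and 2.13 log2.

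The other genes of the pathway were taken from named lists. Of the 11 other subunits of the 20S core, 17 subunits of the 19S regulator and 7 other activators and assembly factors, limma called 0 in mucosa (1.05% of all genes in either direction) and 0 in tumours. At an unadjusted p under 0.05 there were 0 in mucosa (17.5% of all genes) and 4 in tumours, Psma4, Psma7, Psmd13 and Psmg2, all higher in deficient mice (6.11%). Of the 4 tumour arrays, the control tumour array with the high Gapdh ratio was the lowest for each of them; Psma7, a core subunit, read 10.78 there, 11.81 in the other control tumour and 12.21 and 12.38 in deficient tumours. The part of RNA quality in this was not tested. Their medians in mucosa were -0.12, -0.05 and 0.08 log2, against -1.15 for the 9 genes and 0.11 over all genes. Psme3 and Psme4, the activators of the nuclear proteasome, were at -0.20 ± 0.28 and 0.08 ± 0.22 log2 in mucosa. In control tumours against mucosa the assembly chaperones Psmg1 and Psmg4 rose by 1.11 ± 0.24 and 1.22 ± 0.28 log2 (limma, adjusted p = 0.0132 and 0.0161, with 21.2% of all genes called higher), and no 19S or other 20S subunit was called.

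Of the 20 class I and class I-like heavy chain genes listed, 8 were tested, since the rest had no single-gene probe set above the filter. For the classical chains H2-K1 and H2-D1 the HAI-1 differences in mucosa were -0.16 ± 0.24 and -0.21 ± 0.26 log2 (limma, adjusted p = 0.798 and 0.753). H2-K1 had signals of 14.48 and 14.41 in control and of 14.43 and 14.14 in deficient mucosa, so the arrays overlapped. Heavy chain genes are near-copies of each other, and their probe sets may read more than 1 gene. Of the 8, 0 were called for HAI-1 loss (limma); at an unadjusted p under 0.05, 2 were lower in mucosa (4.53% of all genes) and 1 higher, together 3 of 8 (17.5% in either direction), and in tumours there were 0 (6.11%). The lowest value was that of H2-T3, the thymus leukaemia antigen of intestinal epithelium, at -1.04 ± 0.43, and the highest that of H2-Q10 at 1.85 ± 0.51 (limma, adjusted p = 0.266 and 0.123). In control tumours H2-T3 fell by 2.28 ± 0.43 and Cd1d1, which presents lipids to natural killer T cells, rose by 1.51 ± 0.34 log2 against mucosa (limma, adjusted p = 0.00845 and 0.0158). On the control tumour array with the high Gapdh ratio H2-T3 read 7.33, against 8.71 on the other. The part of RNA quality in this was not tested.

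Among the 5 tested partners of peptide loading and trimming, 0 were called for HAI-1 loss (limma). At an unadjusted p under 0.05 there were 0 in mucosa (17.5% of all genes in either direction) and 1 in tumours (6.11%), Pdia3, at 1.36 ± 0.51 log2. In mucosa 2 of the 5 had both deficient arrays below both controls (17.3% of all genes). They were the tapasin homologue Tapbpl (-0.52 ± 0.30) and the trimming peptidase Erap1 (-0.40 ± 0.29; limma, adjusted p = 0.438 and 0.546). Pdia3, the thiol oxidoreductase of the loading complex, fell by 2.02 ± 0.51 log2 in control tumours (limma, adjusted p = 0.0246). Of 5 cytosolic peptidases, Lap3, an interferon-inducible aminopeptidase, fell by 2.79 ± 0.57 in control tumours and Blmh rose by 1.14 ± 0.30 (limma, adjusted p = 0.0114 and 0.0267). On the control tumour array with the high Gapdh ratio Pdia3 and Lap3 read 10.43 and 10.12, against 12.15 and 12.14 on the other; the part of RNA quality in this was not tested. Of 8 tested upstream regulators 0 were called for HAI-1 loss (limma). In mucosa 1 of the 8 had an unadjusted p under 0.05, on the higher side (17.5% of all genes in either direction). This was Ifngr1, the ligand-binding chain of the interferon-gamma receptor, with signals of 10.91 and 11.41 in control mucosa and of 11.70 and 11.88 in deficient mucosa, a difference of 0.63 ± 0.26 log2 (limma, adjusted p = 0.265). Irf1, an interferon-induced activator of this gene group, had signals of 12.60 and 12.18 against 11.75 and 11.70, a difference of -0.67 ± 0.34 (limma, adjusted p = 0.366). In control tumours Ifngr2, a chain of the interferon-gamma receptor, fell by 1.88 ± 0.57 and Rfxap, part of the complex that NLRC5 works with, rose by 0.84 ± 0.22 (limma, adjusted p = 0.0445 and 0.0281). Ifngr2 read 10.14 and 8.99 on the 2 control tumour arrays, the lower value being on the array with the high Gapdh ratio. The part of RNA quality in this was not tested either.

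Of the marker lists, that of T and natural killer cells had both control mucosa arrays above all other arrays, as the members did. For the B and plasma cell, all-leukocyte and macrophage lists the highest single array was also one of control mucosa. The 9 tested of 12 markers of T and natural killer cells averaged 9.91 and 9.61 log2 in control mucosa, 8.66 and 8.10 in deficient mucosa, 8.53 and 8.76 in control tumours and 7.87 and 7.21 in deficient tumours. All 9 had negative differences for HAI-1 loss in mucosa, with a median of -1.46 against 0.11 over all genes. By limma 0 were called (0.152% of all genes were called lower), and 8 had an unadjusted p under 0.05 on the lower side (4.53%). The 3 markers of all leukocytes averaged 10.04 and 10.27 in control mucosa and 9.47 and 8.92 in deficient mucosa. In tumours they averaged 10.18 and 10.24 in controls and 9.68 and 8.23 in deficient mice, so they were not lower in control tumours than in control mucosa, while the 9 members were. Macrophage and dendritic cell markers (7 of 8 tested) averaged 8.54 to 9.22 in control mucosa, 8.05 to 8.89 in deficient mucosa, 8.91 to 9.20 in control tumours and 8.07 to 8.94 in deficient tumours. B and plasma cell markers (4 of 6 tested) averaged 8.74 to 9.52, 8.03 to 8.95, 8.94 to 9.22 and 7.69 to 8.70 in the same order, so that B and plasma cell markers in control tumours lay within their range in control mucosa. The lowest value of a tested T or natural killer marker was 4.80 log2, and 0 values of any tested marker were at 0.

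Fibroblast markers, 6 of 6 tested, averaged 7.65 and 8.03 in control mucosa, 8.83 and 8.67 in deficient mucosa and 10.88 to 11.57 in tumours, and endothelial markers, 5 of 5, averaged 6.39 and 6.06 in control mucosa and 7.20 to 8.26 on the other arrays. The part of cell makeup in the members' values was not tested. In bulk tissue fewer cells of a type and less RNA per cell cannot be told apart.

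**Figure D4:**
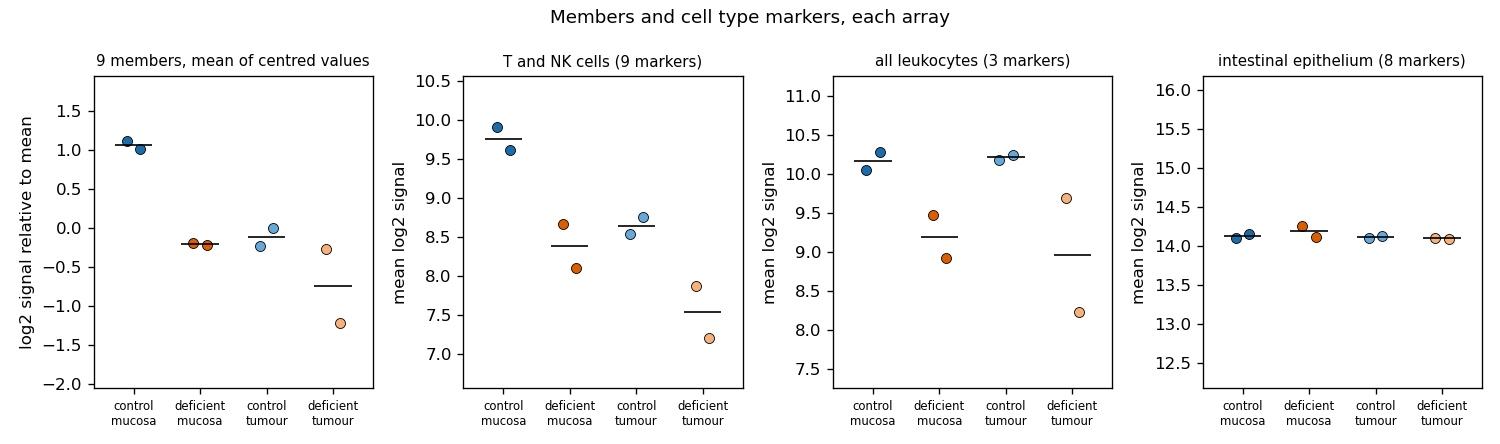
Mean over the 9 members of log2 signal centred on each gene's own mean (left) and mean log2 signal of 3 marker lists, on each array; lines are means of 2 arrays and all panels span 4 log2 units. Members and T and NK markers were highest in control mucosa and lowest on the second deficient tumour array. The mean of the epithelial markers stayed within 14.10 to 14.26, though single markers moved in both directions.

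The members had 6 other probe sets, which were far dimmer than the ones used except for B2m. The second B2m probe set gave -0.20 log2 for HAI-1 loss in mucosa and -0.23 in tumours, close to the first in mucosa. The second Psmb8 probe set, at signals of 4.41 to 8.17, gave -1.68 in mucosa and -0.08 in tumours. The second Tapbp probe set disagreed with the first in tumours, where it gave 2.06 against -0.29. It read 7.07 and 3.68 in control tumours, the lower value being on the array with the high Gapdh ratio, and 8.14 and 6.73 in deficient tumours. The other 3 Tap1 probe sets lay below the filter value of 5.20 log2 on average, at 2.37 to 3.42, and differed in sign from each other.

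The tested genes outside the members whose signal followed the centred mean of the 9 most closely over the 8 arrays were Pkp4, Fam126b, Trim12a, Trim7, Atp6v0a2, Trgv4, Ppm1h, Parp14, Ddx60 and Rfk, at Pearson's r of 0.968 to 0.992. These values describe likeness over 8 arrays that share 4 groups, and they carry no test. The size of the difference in mucosa varied widely among them, from -0.36 log2 for Pkp4 to -2.28 for Ddx60.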

How the data were processed

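Affymetrix arrays of 8 samples were deposited by the authors as 1 table of log2 signals per probe set, for 45101 probe sets. Per the submitters' processing notes, MAS5 and RMA were used; the labels do not state what each did. After 2% was trimmed from either end, the linear values of every array averaged 500.003 to 500.004, and distributions differed between arrays, which is scaling of the MAS5 kind. Detection calls and signal over background were not used here, and the number of arrays limits the precision.

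Probe sets were named by the platform annotation (34958 with 1 gene, 932 with several, 9211 with none), with symbols updated by gene ID to GRCm38.p6 (34754 matched). Dim ones, whose mean over arrays fell below the 40th percentile of 5.20 log2, were removed, and the brightest single-gene probe set was kept per gene. A mean per group was fitted with limma 3.58.1 in R 4.3.3 to all 8 arrays (4 residual and 3.52 prior degrees of freedom); 6 contrasts were tested two-sided with Benjamini-Hochberg adjustment over 13119 genes. The fit was tested on simulated data. Figures used python 3.11.15.

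Members, lists and alternatives were chosen with earlier results of these data known. Every member was named. Genes of the lists were named where called, at most 3 in each direction per list, beside the partners Psmb5, Psmb6 and Psmb7, Spint1 and the 10 genes most like the members; Psme3, Psme4, Tapbpl, Erap1, Irf1, Ifngr1, Psma4, Psma7, Psmd13, Psmg2, H2-K1, H2-D1, H2-Q10 and, in mucosa, H2-T3 were named outside this rule, after their values were seen. Alternatives were quantile normalization, other filters, the mean of probe sets, a mean-variance trend, a block for the replicate number, a spike-in batch term, fits to only the groups compared and leaving out each array.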

Additional observations from a re-analysis of the deposited data

How the results depend on the processing

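In mucosa the number of members called for HAI-1 loss went from 1 to 0 with quantile normalization, no filter, the mean of probe sets, the replicate block and the spike-in batch term, to 2 (Tap2 and Psmb8) with the 60th percentile filter or a mean-variance trend, to 2 (Psmb8 and Psmb9, without Tap2) with only the groups compared, and ran from 0 to 3 on leaving out single arrays; over all these settings the fitted difference stayed negative for all 9 genes. Averaged over tissues, 1 was called with the trend and 0 to 3 without single arrays. In control tumours against mucosa, against 4, 2 were called with quantile normalization, 2 with no filter, 5 with the 60th percentile filter, 5 with the spike-in batch term, 6 with the trend and 1 to 6 without single arrays; with the mean of probe sets 4 were called, with Tapbp in place of Psmb10. The cause was not tested. For HAI-1 loss in tumours the count was 0 in every setting. Signs of uncalled values turned for Psme1 in deficient tumours against mucosa with quantile normalization (0.0477), for Tap1 in the interaction with quantile normalization (-0.12), and, with the mean of probe sets, which brings in dim ones, for Tap1 (0.56) and Tapbp (0.88) in tumours and for Tapbp averaged over tissues (0.0447). Without single arrays, signs turned for HAI-1 loss in tumours of Psmb9 (-1.89 to 0.19), Psmb10 (-0.99 to 0.0353) and Tap2 (-0.25 to 0.15), for deficient tumours against mucosa of Psmb8 (-1.33 to 0.21), Psmb9 (-1.80 to 0.28), Psmb10 (-0.94 to 0.0913), Psme1 (-0.26 to 0.0647) and Tapbp (-0.34 to 0.0129), for the interaction of Tap1 (-0.44 to 0.56), Nlrc5 (-0.50 to 0.56) and B2m (-0.75 to 0.0858), and for Psmb10 minus Psmb7 over both tissues (-1.03 to 0.0359). Among all tested genes, the 138 called in mucosa became 46 with quantile normalization, 0 with no filter, 331 with the 60th percentile filter, 13 with the mean of probe sets, 370 with the trend, 84 with the replicate block, 46 with only the groups compared and 0 to 171 without single arrays. In deficient tumours against mucosa 551 became 0, 959, 157, 972 and 341 under the no-filter, 60th percentile, mean, trend and block settings, 0 with only the groups compared and 0 to 346 without single arrays. In control tumours against mucosa 3777 became 2464 with no filter and 1945 to 3767 without single arrays. Averaged over tissues, 0 became 31 with the 60th percentile filter, 116 with the trend, 1 with the mean of probe sets, 1 with the block and 0 to 221 without single arrays. The labels number the arrays of every group 1 and 2, but the deviations of same-numbered arrays from their group means correlated at -0.14 to 0.22 across genes, so the numbers were not taken as pairs; with the replicate block 4 members were called in control tumours against mucosa, 0 in mucosa and 0 in the other 4 comparisons. With the numbers of the deficient tumours crossed, an alternative chosen after seeing the data, 0 were called for HAI-1 loss in tumours.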
